A study of Mus musculus with 6 samples.

Results

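Extracellular ATP, NAD and adenosine are signals that T cells read at their surface, and 8 genes of this system were followed in CD8+ T cells of the mouse spleen: P2rx7, P2rx4, Entpd1, Nt5e, Adora2a, Cd38, Art2b and Ada. They were taken by name from a list of purinergic and adenosine signalling genes, and each matched 1 of the 28773 gene IDs in the data. All 8 had a mean of at least 1 FPKM (fragments mapped to a gene, scaled by transcript length and by the mapped fragments of the library) over the 6 samples, and so all 8 were among the 12444 genes tested.

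The RNA came from splenic CD8+ T cells taken on day 35 from female mice that had been implanted with a tumor. Both groups had received microwave ablation (MWA) of the tumor, so what they shared includes the ablation itself, and no group without it was analysed here. The 3 MWA+PBS samples, numbered 1 to 3, came from mice injected with the PBS vehicle, and the 3 MWA+2DG samples, numbered 4 to 6, from mice injected with 2-deoxy-D-glucose (2DG), a glucose analogue that blocks glycolysis, in repeated doses that had ended before the spleens were taken. The cells were separated from splenocytes with a CD8+ T cell isolation kit, and the study states that the sorting of CD8+ T cells was checked. The tumor line, the mouse strain and the age behind these libraries are not stated in the labels. Neither source says whether each sample was a separate mouse, so p-values measure the spread between these samples, which may be technical. The labels name no batch, so treatment and any batch aligned with it cannot be told apart.

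ATP released by stressed or dying cells opens the P2X channels on T cells. The ectoenzyme CD39, made from Entpd1, removes phosphates from ATP and ADP, CD73 from Nt5e turns the resulting AMP into adenosine, and adenosine acts through the A2a receptor, encoded by Adora2a, to raise cAMP and restrain the T cell. Adenosine deaminase, from Ada, ends that signal by making inosine. NAD feeds a second branch: the ADP-ribosyltransferase encoded by Art2b attaches ADP-ribose from NAD to surface proteins, P2X7 among them, which opens that channel and can kill mouse T cells, and CD38 consumes the same NAD.

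Art2b was 2.52 times as high in MWA+2DG as in MWA+PBS, while Entpd1, P2rx4 and Cd38 were lower, at 0.444, 0.651 and 0.763 of their MWA+PBS means. P2rx7, Nt5e, Adora2a and Ada did not pass the test. In limma, with p-values adjusted by Benjamini-Hochberg and called under 0.05, 1 member was higher and 3 were lower, whereas 22.3% of all tested genes were higher and 17.1% lower. With the study's own kind of rule, an unadjusted P under 0.05 together with a log2 difference over 0.25 either way, the members again gave 1 higher and 3 lower, beside 21.6% and 16.6% of all tested genes. The count of members higher lies under the background and the count lower above it, and with 8 genes neither is a result about the set.

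The cell type behind the label was checked first, because several of these genes are also made by other cells of the spleen. All 21 markers of the T lineage were tested, and their summed level was 2244 to 2401 FPKM in the MWA+PBS samples against 3160 to 3402 in the MWA+2DG samples, with 18 of them higher and 0 lower at an adjusted p under 0.05 in limma. Cd8a, the defining marker, was present at 231.5 ± 6.96 FPKM (SD, n = 3) in MWA+PBS and at 366.4 ± 9.48 with 2DG. Markers of macrophages and monocytes were also present, with a sum of 833.5 to 896.4 FPKM in the MWA+PBS samples against 322.6 to 358 in the MWA+2DG samples, and 15 of 17 were lower. Lyz2, a lysozyme gene that neutrophils also express, was the 1 that was higher (170.8 ± 12.1 and 227.2 ± 15.4 FPKM, log2 difference 0.41, adjusted p = 0.00449) and made up 66.1% of the sum in MWA+2DG. Without it the sum was 674 to 727.2 FPKM in the MWA+PBS samples against 112.4 to 119.2 in the MWA+2DG samples. Neutrophil markers went the other way, 337.6 to 366.4 FPKM in the MWA+PBS samples against 1640 to 1821 in the others, with 11 of 14 higher and 2, Mpo and Elane, lower. These 2 genes made up 77.8% of the sum in MWA+PBS, and without them it was 67.02 to 91.86 FPKM against 1596 to 1777. No marker of these 3 lists was at 0 in all 6 samples. In bulk RNA, fewer cells of a type and less RNA per cell cannot be told apart, and the part of other cell types in the results below was not tested.

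To show where 3 of the genes begin, the 250 bases before the RefSeq start site were taken (RefSeq, build GRCm38.p6, C57BL/6J). Art2b, the gene that was higher, and P2rx7, whose channel the Art2b product can open, each hold a match to the AP-1 site, and Entpd1, the gene that was lowest relative to MWA+PBS, holds none of the 6 motifs searched. Each line runs 5′ to 3′ on the gene's own strand, and capitals mark the motif match.
Art2b, chr7:101581162-101581411, minus strand: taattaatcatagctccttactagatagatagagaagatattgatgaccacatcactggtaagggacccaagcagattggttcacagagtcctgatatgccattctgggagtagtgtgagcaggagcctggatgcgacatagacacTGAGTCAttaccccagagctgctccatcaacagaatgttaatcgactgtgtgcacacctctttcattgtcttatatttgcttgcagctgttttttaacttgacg
P2rx7, first of 2 windows, chr5:122643677-122643926, plus strand: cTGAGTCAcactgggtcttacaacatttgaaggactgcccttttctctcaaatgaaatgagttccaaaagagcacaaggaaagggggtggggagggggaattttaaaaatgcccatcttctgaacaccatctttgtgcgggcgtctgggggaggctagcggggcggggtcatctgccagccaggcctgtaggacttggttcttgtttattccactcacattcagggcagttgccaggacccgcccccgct
Entpd1, first of 2 windows, chr19:40612116-40612365, plus strand: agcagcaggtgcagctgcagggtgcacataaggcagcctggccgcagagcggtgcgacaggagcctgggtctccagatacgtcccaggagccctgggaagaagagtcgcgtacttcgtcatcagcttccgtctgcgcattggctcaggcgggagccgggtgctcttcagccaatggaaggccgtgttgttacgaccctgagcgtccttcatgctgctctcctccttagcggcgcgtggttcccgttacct

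The search covered both strands of 9 windows from 7 of the 8 genes. Adora2a had no window in the table used. The AP-1 site was sought as TGANTCA and was found in Art2b, with its first base 104 bases before the start, and in P2rx7, 249 bases before it. In 32851 promoter windows of the same length, 6.75% held it. The interferon-gamma activated site (GAS), TTCNNNGAA, was present in Ada as TTCCGGGAA, 90 bases before the start, and in 7.02% of all windows. The other motifs were the cAMP response element TGACGTCA, the hypoxia response element ACGTG, a PU.1 site GAGGAAGT and the interferon-stimulated response element (ISRE), present in 1.55%, 16.57%, 2.44% and 2.98% of all windows, and no member's window held any of them. These are matches of letters, not measured binding. For Art2b, the RefSeq start lies 4439 bases inside the gene as GENCODE M21 draws it, so other transcripts of the gene begin elsewhere.

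Of the 8 genes, Art2b of the NAD branch had the largest difference. Art2b (ENSMUSG00000030651) was at 9.62, 12.03 and 9.91 FPKM in the MWA+PBS samples and at 26.87, 27.19 and 25.6 in the MWA+2DG samples. Every MWA+2DG sample was above every MWA+PBS sample, with group means of 26.55 ± 0.841 and 10.52 ± 1.32 FPKM (SD, n = 3). On the log2(FPKM + 1) scale the difference was 1.26 ± 0.08 (SE, 95% interval 1.07 to 1.46), with an adjusted p of 3.44e-05 in limma, and its size was larger than that of 96.9% of the tested genes. Art2b has a near copy, Art2a-ps, whose transcript matched 1212 of the 2819 bases of the longest Art2b transcript at 86.7% identity. Art2a-ps itself was low, at 1.18 ± 0.314 FPKM (MWA+PBS) and 2.56 ± 0.723 (MWA+2DG), and the sources used here do not say how reads matching both genes were divided.

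**Figure D1:**
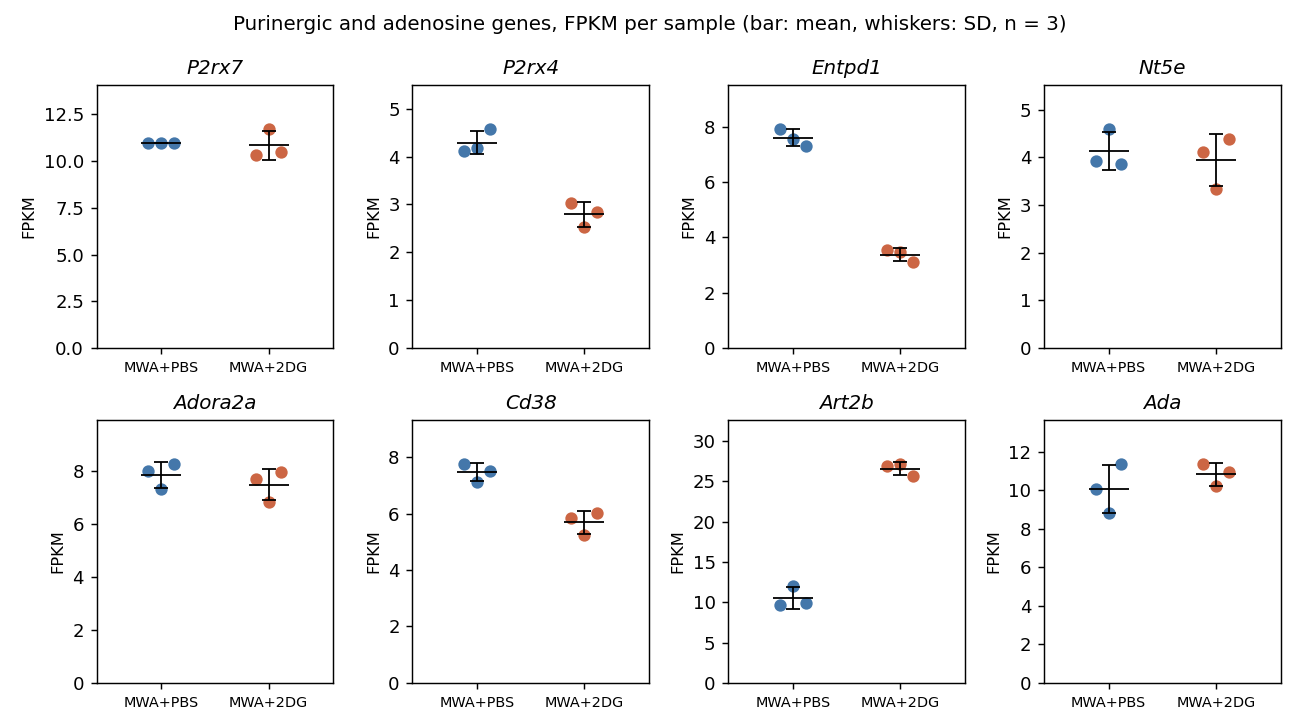
FPKM of the 8 genes in each sample, 1 panel per gene with its own axis from 0; points are samples, the horizontal bar is the group mean and the whiskers are the SD (n = 3). The groups do not overlap for P2rx4, Entpd1, Cd38 and Art2b, and they overlap for P2rx7, Nt5e, Adora2a and Ada.

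Cd38 (ENSMUSG00000029084), the ectoenzyme that breaks down NAD, had 7.78, 7.13 and 7.51 FPKM in MWA+PBS and 5.84, 5.24 and 6.02 in MWA+2DG. The groups did not overlap, and the means were 7.47 ± 0.327 and 5.7 ± 0.408 FPKM (SD, n = 3). The log2 difference was -0.34 ± 0.07 (SE, 95% interval -0.50 to -0.18), with an adjusted p of 0.00733 in limma. The transcript of the enzyme that spends NAD on ADP-ribosylation was higher, and that of the enzyme that removes NAD lower, in the same samples. Whether the same cells carried both transcripts was not tested. Their ratio, Art2b over Cd38 in FPKM, was 1.24, 1.69 and 1.32 in MWA+PBS and 4.6, 5.19 and 4.25 in MWA+2DG, which is 3.31 times as high on average.

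Of the P2X channels, P2rx4 passed the test and P2rx7 did not. P2rx7 (ENSMUSG00000029468), the channel that Art2b's product can modify, was at 10.98, 10.95 and 10.98 FPKM in MWA+PBS and 10.31, 11.72 and 10.48 in MWA+2DG. Sample 5 was above all MWA+PBS samples and samples 4 and 6 were under them, so the spread was wider in MWA+2DG, with means of 10.97 ± 0.0173 and 10.84 ± 0.770 FPKM (SD, n = 3). The log2 difference was -0.02 ± 0.06 (SE, 95% interval -0.17 to 0.13), with an adjusted p of 0.844 in limma. Its only exon overlap with another gene was Mir8115 on the same strand, whose mean was 0.015 FPKM.

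P2rx4 (ENSMUSG00000029470), an ATP channel that is more sensitive to ATP than P2X7, was at 4.12, 4.18 and 4.58 FPKM in MWA+PBS and at 3.03, 2.52 and 2.84 in MWA+2DG. Every MWA+2DG sample lay under every MWA+PBS sample, with means of 2.80 ± 0.258 and 4.29 ± 0.25 FPKM (SD, n = 3). The log2 difference was -0.48 ± 0.08 (SE, 95% interval -0.67 to -0.29), with an adjusted p of 0.00291 in limma. The interval of P2rx4 lies wholly under that of P2rx7, although the difference between both genes was not tested in that fit.

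Of the enzymes that turn ATP into adenosine, the first was lower and the second did not pass the test. Entpd1 (ENSMUSG00000048120) had 7.92, 7.56 and 7.31 FPKM in MWA+PBS and 3.54, 3.47 and 3.1 in MWA+2DG. The groups were far apart for their spread, with means of 7.60 ± 0.307 and 3.37 ± 0.236 FPKM (SD, n = 3). The log2 difference was -0.98 ± 0.07 (SE, 95% interval -1.14 to -0.81), with an adjusted p of 4.65e-05 in limma, larger in size than that of 94.6% of the tested genes.

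Nt5e (ENSMUSG00000032420), which makes adenosine from AMP, had 3.93, 4.6 and 3.87 FPKM in MWA+PBS and 4.11, 3.34 and 4.38 in MWA+2DG. The groups overlapped, with means of 4.13 ± 0.405 and 3.94 ± 0.540 FPKM (SD, n = 3). The log2 difference was -0.06 ± 0.10 (SE, 95% interval -0.30 to 0.18), with an adjusted p of 0.689 in limma.

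The receptor and the enzyme that ends its signal both overlapped between the groups. Adora2a (ENSMUSG00000020178) had 8, 7.33 and 8.3 FPKM in MWA+PBS and 7.7, 6.84 and 7.97 in MWA+2DG, a log2 difference of -0.06 ± 0.08 (SE, 95% interval -0.24 to 0.11) with an adjusted p of 0.546 in limma. Ada (ENSMUSG00000017697) had 10.07, 8.85 and 11.36 FPKM in MWA+PBS and 11.4, 10.21 and 10.95 in MWA+2DG, a log2 difference of 0.10 ± 0.09 (SE, 95% interval -0.11 to 0.31) with an adjusted p of 0.414 in limma. Neither gene showed a difference beyond the spread between samples in the deposited values.

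**Figure D2:**
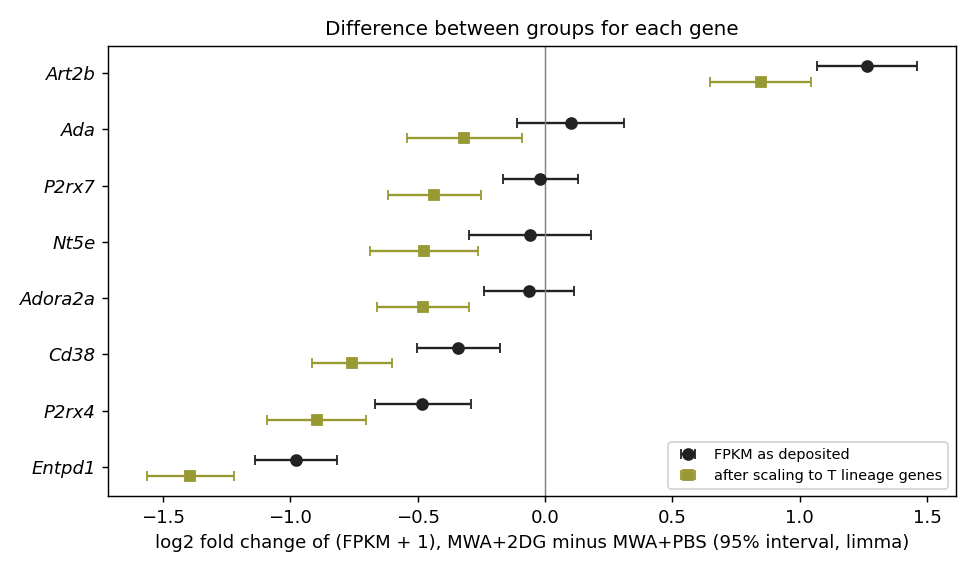
Difference between MWA+2DG and MWA+PBS on the log2(FPKM + 1) scale for each gene with its 95% interval from limma, for FPKM as deposited (circles) and after scaling each sample to its T lineage genes (squares). Art2b is right of 0 and Entpd1, P2rx4 and Cd38 are left of 0 with both scalings; Ada moves from 0.10 to -0.32, and P2rx7, Nt5e and Adora2a leave 0 only after the T lineage scaling.

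The groups did not overlap for 1 member above and 3 below, and among all tested genes 30.2% did not overlap with MWA+2DG above and 21.9% with it below.

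The choice of reference decided the reading of the genes that did not pass. The mean log2 level of the T lineage list was 0.42 higher in MWA+2DG, and scaling each sample to that list moved the median log2 difference of all tested genes from 0.05 to -0.37. On that scale Art2b stayed higher, at 0.85 (adjusted p = 9.72e-05 in limma), and the other 7 members were lower, beside 3.99% of all tested genes higher and 67.7% lower. Entpd1 was at -1.39, P2rx4 at -0.90 and Cd38 at -0.76. P2rx7 at -0.43 (adjusted p = 0.00167), Nt5e at -0.47 (adjusted p = 0.00227), Adora2a at -0.48 (adjusted p = 0.000945) and Ada at -0.32 (adjusted p = 0.0198) passed the limma test only there. Measured from the median of all genes on that scale, these 4 lay at -0.06, -0.10, -0.11 and 0.05, so they were lower relative to T lineage genes and close to the typical gene.

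A ratio between members within a sample cancels a scaling factor common to that sample, but not a difference in its mix of cell types. The part of that mix in these ratios was not tested. Art2b over P2rx7 was 0.876, 1.1 and 0.903 in MWA+PBS and 2.61, 2.32 and 2.44 in MWA+2DG, so the transferase transcript went from about the level of its target channel to well above it. Entpd1 over Nt5e, the 2 steps from ATP to adenosine, was 2.02, 1.64 and 1.89 in MWA+PBS and 0.861, 1.04 and 0.708 in MWA+2DG, which is 0.470 of the MWA+PBS mean. Entpd1 over P2rx7 fell from a mean of 0.693 to 0.312, and P2rx4 over P2rx7 from 0.391 to 0.260, without overlap between the groups. Nt5e over Ada, the source against the sink of adenosine, overlapped, with means of 0.417 and 0.363. Of 6 ratios compared, 5 reached p = 0.1 in a two-sided exact permutation test, or 0.12 after Benjamini-Hochberg adjustment. An exact p of 0.1 is the least 3 samples against 3 can give. Nt5e over Ada had an exact p of 0.5. Each of the 5 holds a gene that passed the limma test, and Nt5e over Ada holds none. The ratios therefore restate those differences and are not further evidence for them.

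**Figure D3:**
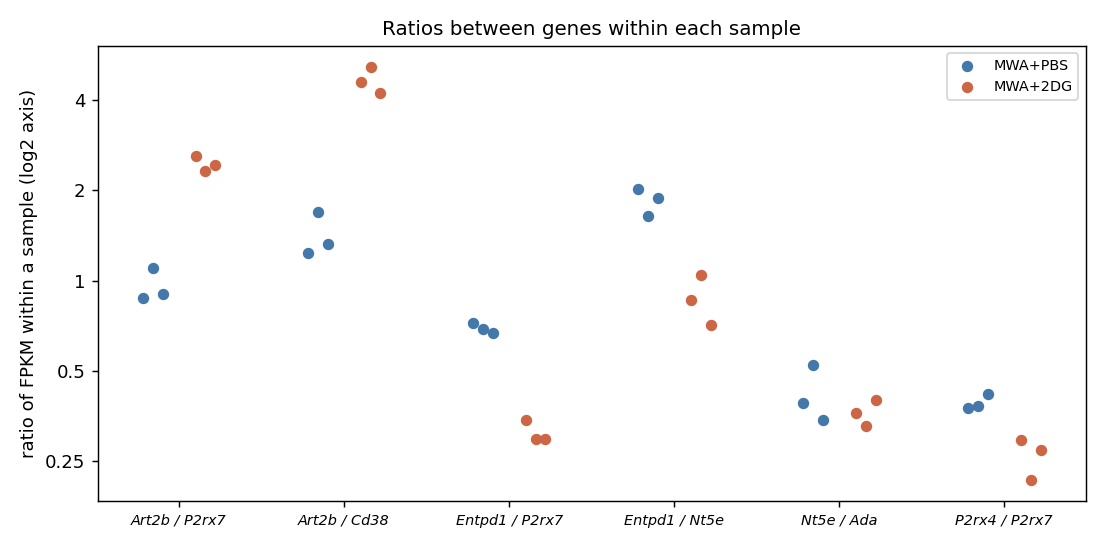
Ratio of the FPKM of a pair of genes within each sample, on a log2 axis; each point is 1 of 3 samples per group. The groups are separate for 5 of the 6 ratios, each of which holds a gene that differed on its own, and overlap for Nt5e over Ada.

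The order of the levels shifted as well. FPKM is scaled by length, so levels can be set beside each other between genes. In MWA+PBS, P2rx7, Art2b and Ada were highest and overlapped from one to the next, Adora2a, Entpd1 and Cd38 came next and also overlapped, and P2rx4 and Nt5e were lowest with overlapping values. In MWA+2DG, Art2b stood alone at the top, followed by Ada and P2rx7, which overlapped, then Adora2a and Cd38 separately, then Nt5e and Entpd1, which overlapped, and P2rx4 last. Entpd1 thereby went from above Nt5e in all 3 MWA+PBS samples to beside it. Over all 6 samples Art2b lay at the 80.8th percentile of mean FPKM among tested genes, P2rx7 at the 66.4th, Ada at the 65.1st and P2rx4, the lowest, at the 31.2nd.

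The profiles of the members over the 6 samples were set beside those of 157 other genes of the pathway and cell type lists by Pearson's r of log2(FPKM + 1), as a description, since samples of both groups enter and a shared group difference alone gives a high r. Entpd1 was most like Hba-a1, Elane and C1qa, with r between 0.998 and 0.999, which are a globin, a neutrophil elastase of early granules and a complement subunit made by macrophages. P2rx4 was most like Klf1, Mertk and Cd163 (r from 0.972 to 0.986), of which Klf1 is an erythroid factor and the others macrophage receptors. Cd38 was most like Ampd2, Itgax and Klf1 (r from 0.971 to 0.981). Art2b was most like Txk, a T cell kinase, at 0.999 and the neutrophil genes Camp and Ly6g at 0.998 and 0.996.

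The genes that did not pass the test had lower values of r. The highest r was 0.539 for P2rx7 (Prkaca), 0.799 for Nt5e (Pnp2), 0.743 for Adora2a (Csk) and 0.871 for Ada (Mzb1).

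**Figure D4:**
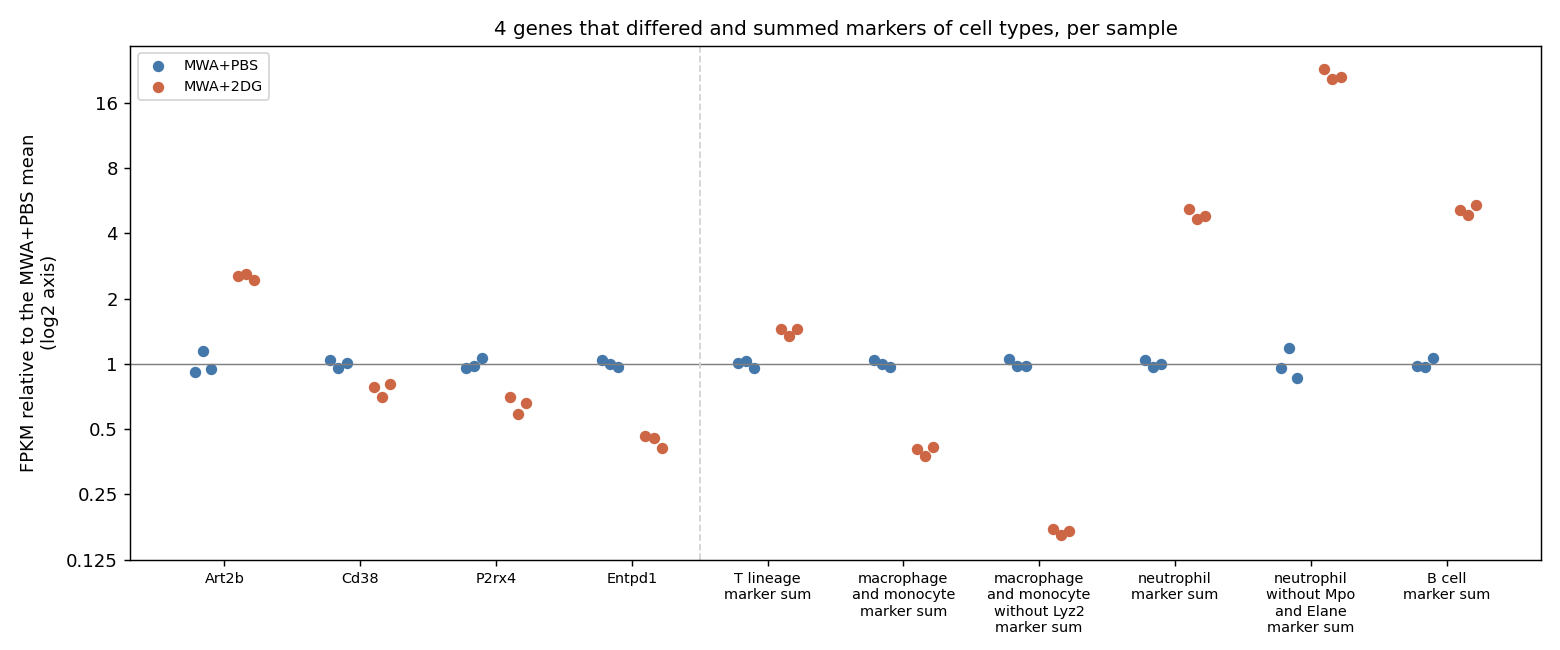
FPKM in each sample relative to the MWA+PBS mean, on a log2 axis, for the 4 genes that differed (left of the dashed line) and for the summed markers of 4 cell types (right), 2 of them also without the genes that went against their list. Art2b at 2.43 to 2.59 lay above the T lineage sum at 1.35 to 1.45, and Entpd1 at 0.408 to 0.466 lay beside the macrophage and monocyte sum at 0.374 to 0.415, which is 0.168 on average without Lyz2.

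Beside these markers the sizes can be compared. In MWA+2DG the T lineage sum was 1.42 times its MWA+PBS mean, the macrophage and monocyte sum 0.398 (0.168 without Lyz2), the neutrophil sum 4.88 (21.5 without Mpo and Elane), the erythroid sum 0.229 (9 of 9 markers lower) and the B cell sum 5.13 (8 of 9 tested markers higher). Natural killer and dendritic cell markers, all 3 and both of those tested, were lower, with sums at 0.389 and 0.441. Tyrobp and Fcer1g, which myeloid cells also express, made up 89.5% of the natural killer sum in MWA+PBS, and without them it was at 0.783. These sums without single genes were computed after the values were seen. Markers of plasma cells had 3 of 5 tested lower and 1 higher, with a sum at 0.563, those of CD4 and regulatory T cells 2 of 6 lower, with a sum at 0.824, and those of platelets 3 of 4 lower, with a sum at 0.445. Entpd1 at 0.444 of its MWA+PBS mean, P2rx4 at 0.651 and Cd38 at 0.763 all lay within the range of the sums under 1, which ran from 0.229 for the erythroid list to 0.824 for CD4 and regulatory T cells, or from 0.168 without Lyz2. Art2b at 2.52 lay above the T lineage sum and under the neutrophil and B cell sums. How much of each difference these cells carried was not tested.

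The wider pathway was read from 91 further genes, of which 86 were in the data and 60 were tested. At an adjusted p under 0.05 in limma, 17 were higher, 16 were lower and 27 did not pass, where 22.3% of all tested genes were higher and 17.1% lower. The median log2 difference was 0.01, beside 0.05 for all tested genes. Without overlap between the groups there were 18 above and 20 below (30.2% and 21.9% of all tested genes), and with the study's kind of rule 15 higher and 14 lower (21.6% and 16.6%). With the T lineage scaling the counts became 2 higher and 45 lower (3.99% and 67.7%).

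**Figure D5:**
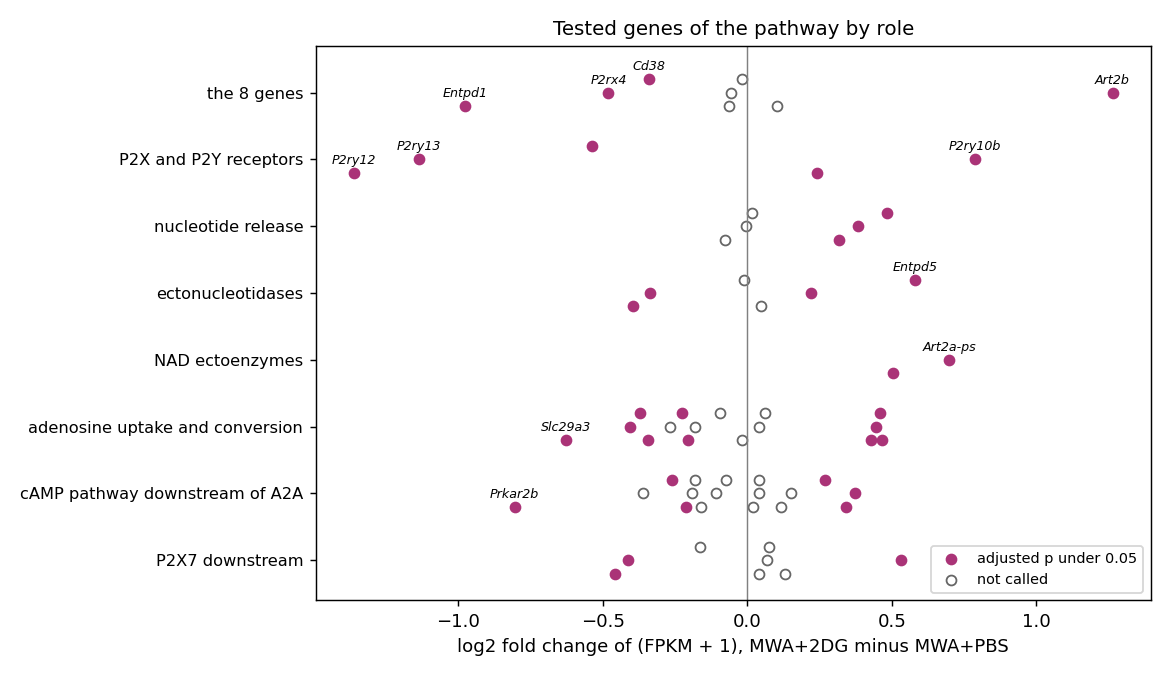
Log2 difference of (FPKM + 1), MWA+2DG minus MWA+PBS, for the 8 genes (top row) and the 60 other tested genes of the pathway by role; each point is a gene, filled where the adjusted p was under 0.05 in limma and drawn at 3 heights only to separate points. Panx1, in 2 roles, is drawn once; P2ry12 and P2ry13 lie farthest left and Art2b farthest right. The scaling to T lineage genes, not drawn, moves every point left by 0.42 and takes genes such as Slc17a9, Lrrc8b, Adcy7, Pde8a and Prkacb from right of 0 to left of it.

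Of the other P2X and P2Y genes, 5 were tested and 8 were under the filter. Of those tested 2 were higher and 3 lower, beside 22.3% and 17.1% of all tested genes. The 3 lower were P2ry1, P2ry12 and P2ry13. The 2 higher were P2ry10 and P2ry10b, which despite their names are lysophosphatidylserine receptors and not nucleotide receptors. P2ry12, an ADP receptor of platelets and microglia, was at 2.77, 3.13 and 3.3 FPKM in MWA+PBS and 0.59, 0.62 and 0.53 in MWA+2DG, a log2 difference of -1.36 (adjusted p = 3.61e-05 in limma). P2ry13, also an ADP receptor, was at 5.83 ± 0.208 and 2.11 ± 0.330 FPKM (log2 difference -1.14, adjusted p = 8.26e-05), and P2ry1 was lower by a smaller amount (-0.54, adjusted p = 0.00523). P2ry10b, at 3.87 ± 0.441 and 7.40 ± 0.371 FPKM, was higher with every scaling tried, by 0.79 as deposited (adjusted p = 0.000301) and 0.37 with the T lineage scaling (adjusted p = 0.00286). The related P2ry10 was 0.24 higher as deposited (adjusted p = 0.0417 in limma) and -0.18 with the T lineage scaling (adjusted p = 0.0582).

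Of the other genes listed as NAD ectoenzymes, 5 of the 7 in the data were under the filter. The 2 tested, Art2a-ps and Art4, were higher in the deposited values, beside 22.3% of all tested genes. Whether either makes an active enzyme was not tested. Art2a-ps, a pseudogene by its symbol, is the near copy of Art2b named above and may share reads with it. Art4, an ADP-ribosyltransferase family member, was at 2.45 ± 0.130 FPKM in the MWA+PBS group against 3.91 ± 0.465 in MWA+2DG (log2 difference 0.51, adjusted p = 0.00382 in limma), and Art2a-ps differed by 0.70 (adjusted p = 0.0146). With the T lineage scaling they were at 0.09 (adjusted p = 0.365) and 0.28 (adjusted p = 0.164). Among the other ectonucleotidases, Entpd5, a nucleoside diphosphatase of the endoplasmic reticulum, was higher where Entpd1 was lower, at 16.05 ± 0.304 and 24.5 ± 0.317 FPKM (log2 difference 0.58, adjusted p = 9.6e-05, and 0.16 with adjusted p = 0.0385 after the T lineage scaling). Enpp2 and Enpp4 were lower, at -0.40 (adjusted p = 0.0226) and -0.34 (adjusted p = 0.00608).

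Of the genes that carry nucleotides out of the cell, 3 of 6 tested were higher and 0 lower in the deposited values, beside 22.3% and 17.1% of all tested genes. Slc17a9, which loads ATP into vesicles, was 0.32 higher (adjusted p = 0.00807 in limma), and Lrrc8c and Lrrc8b, subunits of the volume-regulated anion channel, were 0.48 and 0.38 higher, but with the T lineage scaling these 3 lay at -0.10, 0.07 and -0.03. Panx1, the pannexin channel that releases ATP and works with P2X7, was at 7.27 ± 0.735 and 6.81 ± 0.281 FPKM and did not pass (-0.08, adjusted p = 0.468).

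Of the genes listed with uptake and conversion of adenosine, 4 of 16 tested were higher and 6 lower, beside 22.3% and 17.1% of all tested genes. With the T lineage scaling 0 were higher and 12 lower, beside 3.99% and 67.7%. The equilibrative nucleoside transporters Slc29a1 and Slc29a3 were lower, at -0.37 (adjusted p = 0.00746 in limma) and -0.63 (adjusted p = 0.000412). The concentrative transporter Slc28a2 was higher in the deposited values, at 10.99 ± 0.847 and 15.11 ± 0.399 FPKM (0.43, adjusted p = 0.00204), and 0.01 with the T lineage scaling. The other 3 that were higher were Dpp4, Ampd1 and Adal. Dpp4, a dipeptidyl peptidase that does not itself move or convert adenosine, was at 0.45 (adjusted p = 0.00394 in limma). Ampd1, an AMP deaminase, was at 0.47 (adjusted p = 0.00674), and Adal, an adenosine deaminase-like gene, at 0.46 (adjusted p = 0.00844). With the T lineage scaling these 3 lay at 0.03, 0.05 and 0.04. Pnp, which splits the inosine that adenosine deaminase makes, was at -0.41 (adjusted p = 0.00644), with reads that may be shared with its near copy Pnp2, and Ahcy, which frees adenosine from S-adenosylhomocysteine, at -0.34 (adjusted p = 0.00583). Adk, which phosphorylates adenosine, did not pass (0.04, adjusted p = 0.768).

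Downstream of the A2a receptor, 3 of 17 tested genes of the cAMP pathway were higher, 3 were lower and 11 did not pass in the deposited values. These shares were close to the 22.3% and 17.1% of all tested genes. With the T lineage scaling 0 were higher and 15 lower, beside 3.99% and 67.7% of all tested genes. Prkar2b, a regulatory subunit of protein kinase A, had the largest of these differences, with 5.77 ± 0.467 FPKM in the MWA+PBS group against 2.89 ± 0.528 in MWA+2DG (-0.81, adjusted p = 0.00109 in limma). Adcy7, the adenylyl cyclase with the highest level of those listed, was at 75.05 ± 3.02 and 97.39 ± 1.95 FPKM (0.37, adjusted p = 0.00119, and -0.04 with the T lineage scaling). Pde8a and Prkacb, a cAMP phosphodiesterase and a catalytic subunit of protein kinase A, were 0.34 and 0.27 higher (adjusted p = 0.00918 and 0.00433) and lay at -0.07 and -0.15 with that scaling, and the phosphodiesterase Pde3b was at -0.26 (adjusted p = 0.0132). The genes listed as downstream of P2X7 include inflammasome genes in general. Of these, 1 of 9 tested was higher and 2 were lower, beside the same 22.3% and 17.1%. With the T lineage scaling 0 were higher and 8 lower, beside 3.99% and 67.7%. Aim2, an inflammasome sensor of DNA and not a target of P2X7 itself, was 0.53 higher (adjusted p = 0.00256 in limma). With the T lineage scaling Aim2 lay at 0.12 (adjusted p = 0.191). Il1b and Mapk14 were lower, at -0.46 (adjusted p = 0.00576) and -0.41 (adjusted p = 0.000694). Casp1 and Pycard, parts of the inflammasome, did not pass, at 0.13 (adjusted p = 0.438) and 0.04 (adjusted p = 0.812).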

How the data were processed

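Poly(A) RNA of 6 samples was sequenced in strand-marked libraries with molecular identifiers. The authors deposited FPKM per gene for each sample. The submitters' processing notes name cutadapt 1.9, HISAT2 2.0.4, UMI-tools, StringTie 1.3.4d and mm9, and the study's methods name fastp, HISAT2, StringTie and ballgown. The annotation, and whether strand and identifiers entered the quantification, are not stated in the sources read. Since FPKM divides by the library's total, genes that take a larger share lower the others. FPKM totals ran from 291803 to 313257, and 22414 to 23340 genes were above 0. No common step that would give whole reads was found, so depth is unknown and counting intervals are not given. Across genes, Pearson's r of log2(FPKM + 1) was 0.984 to 0.989 within groups and 0.935 to 0.943 between them.

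Symbols were matched for 28689 of 28773 IDs with GENCODE M21. The 12444 genes with a mean of at least 1 FPKM were tested on log2(FPKM + 1), a scale that understates the change of low genes, with limma 3.58.1 in R 4.3.3 (lmFit, eBayes with trend; two-sided; MWA+2DG against MWA+PBS; no covariates) and Benjamini-Hochberg adjustment over all of them. The fit was tested on simulated data. The members, the pathway lists and the marker lists were chosen with earlier results of these data known. All members were named, with genes of the other pathway lists past an adjusted p of 0.05 and a log2 fold change of 0.25, and for each member the 3 listed genes with the most similar profile. Panx1, Adk, Casp1, Pycard and P2ry10 were named for their roles and Cd8a for the identity check, after their values were seen. Ratios within samples were compared by exact permutation. Near copies were sought with BLAST 2.17.0 and promoter windows came from RefSeq. Alternatives were other pseudocounts, filters, scalings, variance models, a second call rule and leaving out each sample.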

Additional observations from a re-analysis of the deposited data

How the results depend on the processing

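Art2b, Entpd1 and Cd38 kept their direction and their call in 16 of 16 alternatives and P2rx4 in 15 of 15, with log2 differences of 0.85 to 1.36, -1.39 to -0.93, -0.76 to -0.29 and -0.90 to -0.43. The 3 members lower became 7 with the T lineage scaling, where Ada reversed to -0.32. P2rx7 reversed to 0.026 with TPM scaling, which was chosen after seeing the data, and Nt5e to 0.012 with arrayWeights. Neither passed the test there. Leaving out each replicate in turn gave 1.21 to 1.36 for Art2b, -1.01 to -0.93 for Entpd1, -0.53 to -0.43 for P2rx4 and -0.37 to -0.29 for Cd38. The same gave -0.071 to 0.014 for P2rx7, -0.121 to 0.033 for Nt5e, -0.11 to -0.01 for Adora2a and 0.02 to 0.18 for Ada, whose calls did not change. Outside the T lineage scaling the limma adjusted p of these 4 ran from 0.394 to 0.983, from 0.448 to 0.964, from 0.297 to 0.964 and from 0.139 to 0.868. Of all tested genes, 4907 were called, 2951 at a mean of at least 5 FPKM, where fewer genes are tested, and 8917 with the T lineage scaling. Of the other pathway genes, the 17 higher became 2 with that scaling, and the 16 lower became 10 at a mean of at least 5 FPKM and 45 with that scaling. P2rx4 and Nt5e were not in the fit at a mean of at least 5 FPKM. Of the calls, 56.5% were higher in the deposited values, 5.6% with the T lineage scaling and 64.6% with TPM scaling. No paired analysis was possible because the groups share no sample number. The depth is unknown, and 3 samples a group limit what can be told for small differences.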

Other observations

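Some genes of the system fell under the filter on low values and were tested only in the alternative without it. Of the 26 such genes, the highest value in any sample was 1.53 FPKM. Adora2b, the low-affinity adenosine receptor, was listed at 0.72, 0.58 and 0.57 FPKM in MWA+PBS and 0.16, 0.12 and 0.07 in MWA+2DG. Nlrp3, the inflammasome sensor that P2X7 activates, was listed at 1.16, 0.79 and 1.53 in MWA+PBS and 0.33, 0.42 and 0.47 in MWA+2DG. Bst1, a relative of Cd38, was listed at 0.45, 0.15 and 0.18 in MWA+PBS and 0.86, 0.91 and 0.73 in MWA+2DG. In limma without the filter their adjusted p-values were 0.00293, 0.0331 and 0.02, with log2 differences of -0.54, -0.61 and 0.55. These 3 genes were chosen after their values were seen. Of the 26 genes, the groups did not overlap for 3 with MWA+2DG above and 10 with it below. The shares were 6.89% and 11.5% of the 16014 genes in the data that were under the filter and above 0 in at least 1 sample. Genes at 0 in most samples cannot separate the groups and lower such shares, and their part in either set was not compared.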
